A study of Homo sapiens with 16 samples.

Results

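TAC1, NTS and GAL are genes for neuropeptide precursors, secreted proteins that are cut into short signalling peptides, and they are 3 of the 17738 genes measured by RNA sequencing in 16 libraries of the human embryonic stem cell line H1. They were picked by symbol with earlier results of the same libraries known: TAC1 for its higher level and NTS for its lower level in cells given 2-deoxyglucose (2DG). The 2DG values of TAC1 and NTS are therefore a description with no test, as are the TAC1 levels without 2DG, which are very low. The other ligand comparisons and all comparisons of GAL were tested. The E7 and E7+2DG libraries that serve as controls in the ligand comparisons are also part of the comparison by which both genes were picked.

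All cells were wild type and spent 24 h in E7, a defined medium that equals E8 without TGFb. E7 was used alone, with 1.74 ng/mL TGFb, with 100 ng/mL Activin A or with 100 ng/mL NODAL. Each of these media was used with or without 3 mM 2DG, which gave 8 groups of 2 libraries. TGFb, Activin A and NODAL are ligands whose receptors phosphorylate SMAD2 and SMAD3, and 2DG is a sugar that enters the cell like glucose, is phosphorylated and then blocks further glucose breakdown. Nothing in the labels tells whether replicates came from separate cultures, and p-values here measure the spread between these samples, which may be technical.

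Levels are normalised reads, the authors' read counts divided by 1 size factor per library, and the libraries held 14600479 to 17630329 recovered reads. All 14 pluripotent stem cell markers on the fixed list were in the table, with POU5F1 at 31405.7 to 63984.7 normalised reads, and their summed level was 163296.7 to 206516.5. Of the neuron and neuroendocrine markers 13 of 21 were in the table, summing to 3273 to 5285, against 5 of 12 endoderm and gut markers summing to 56.2 to 145 and 6 of 12 fibroblast markers summing to 3452 to 5357. NEFL, at 786 to 2028, and NEFM, at 1083 to 1891, made up much of the neuron sum, and DCX, for one, was at 11.3 to 42.15. THY1 alone held 1814 to 4030 of the fibroblast sum, and COL1A1, for one, was at 184 to 321. The table holds only genes with at least 1 read in every library, so no marker is listed at 0. The replicates of 3 groups differed along the 2DG response. Of the 2433 genes higher with 2DG in E7, 84.8% were higher in replicate 2 than in replicate 1 of E7+ActivinA+2DG, 77.2% in E7+ActivinA and 23.5% in E7, and of the 2480 lower genes 88.1%, 78% and 24.4% were lower. These shares were 42.5 to 66.4% and 38.7 to 66.9% in the other groups, and the SD of the replicate difference over all genes was largest in E7+ActivinA, at 0.62 on the log2 scale.

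Neuropeptide precursors enter the secretory pathway, where prohormone convertases cut them, carboxypeptidases trim the ends and further enzymes amidate or cyclise them. TAC1 encodes the precursor of substance P and neurokinin A, tachykinins that act on NK receptors. NTS encodes the precursor of neurotensin and neuromedin N, known from brain and from endocrine cells of the small intestine. GAL encodes the precursor of galanin and galanin message-associated peptide, and galanin binds the receptors GALR1, GALR2 and GALR3. Each mature peptide is known as a transmitter or hormone in nerve and gut, and the transcripts were measured here in stem cells, with no measurement of the peptides.

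On GRCh38 with GENCODE 29 annotation, TAC1 (ENSG00000006128.11) lies on the plus strand of chromosome 7 from 97731908 to 97740472, with 5 annotated transcripts and 1888 bases of merged exons. NTS (ENSG00000133636.10) lies on the plus strand of chromosome 12 from 85874295 to 85882992, with 3 transcripts and 1555 bases of merged exons. GAL (ENSG00000069482.6) lies on the plus strand of chromosome 11 from 68683779 to 68691175, with 2 transcripts and 1300 bases of merged exons. No other annotated gene overlaps any of them, so an unstated strand setting does not mix their reads with those of a neighbour.

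Promoter sequences from RefSeq (GRCh38.p14) were matched for 2 of the 3 genes, TAC1 and NTS, and are shown because the 2 transcripts differed in opposite directions with 2DG. The 250 bases before the RefSeq start were searched on both strands for 4 motifs: TGACNTCA (the core of the cyclic AMP response element), TGANTCA (AP-1), TGANGNAA (the core of a C/EBP-ATF composite site) and CACGTG (an E-box). The first is the stretch of TAC1 at chr7:97731836-97731907, plus strand, that ends at the base before the GENCODE start, with the C/EBP-ATF match in capitals.
TAC1 upstream: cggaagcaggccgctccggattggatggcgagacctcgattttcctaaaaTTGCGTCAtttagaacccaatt
The second holds the E-box of TAC1 in capitals, at chr7:97732013-97732042, plus strand, which is before the RefSeq start at 97732086 but inside the first exon of a longer GENCODE transcript.
TAC1 E-box: tggggagaatgtCACGTGggtctggaggct
The third is the 100 bases before the NTS start, chr12:85874195-85874294, plus strand, with the cyclic AMP response element core in capitals.
NTS upstream: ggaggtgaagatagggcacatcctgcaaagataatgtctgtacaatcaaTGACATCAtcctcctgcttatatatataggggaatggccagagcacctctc

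The C/EBP-ATF match of TAC1 reads on the minus strand and begins 200 bases before the RefSeq start, and the E-box begins 61 bases before it. The NTS match is on the plus strand and begins 51 bases before the start. These motifs are common: of 35116 RefSeq promoters, 12.7% hold TGANGNAA, 6.87% hold TGACNTCA, 6.57% hold TGANTCA and 6.34% hold CACGTG within the same 250 bases. TGANTCA was in neither window, TGACNTCA was not in that of TAC1, and TGANGNAA and CACGTG were not in that of NTS. Each match is a run of letters, and binding was not measured.

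TAC1 transcripts were scarce in every medium without 2DG and higher in every medium with it. Without 2DG the 2 libraries held 8.62 and 12.2 normalised reads in E7, 8.39 and 8.43 with TGFb, 7.505 and 5.65 with Activin A, and 5.28 and 5.65 with NODAL. With 2DG they held 245 and 257 in E7, 264 and 288 with TGFb, 69.7 and 362 with Activin A, and 101 and 120.4 with NODAL. The lowest library with 2DG lay above the highest library without it, and the highest of all 16 was 68.6 times the lowest. With 2DG, TAC1 lay above 35.7 to 59.2% of the genes of its library, which is a moderate level. The values without 2DG rest on 5 to 12 recovered reads per library, so their relative counting error is large, and those with 2DG rest on 73 to 337.

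The mean TAC1 level with 2DG was 24.1 times that without it in E7, 32.8 times in both TGFb and Activin A media, and 20.2 times in NODAL medium. On the log2 scale of the value plus 1, the scale of every fold change below, these differences were 4.48, 4.88, 4.41 and 4.10 (SE 0.50 each). Because of the added 1, the log2 value understates the change of a gene as low as TAC1. Leaving out 1 library at a time moved the Activin A value between 3.23 and 5.59, the widest range of the 4 media. In bulk RNA, fewer cells that express a gene and less of its RNA per cell cannot be told apart. The median log2 change of all 16714 tested genes was 0.00 in each medium.

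The order of TAC1 group means ran from E7+TGFb+2DG (276 ± 17.4 normalised reads, SD, n = 2) through E7+2DG (251 ± 8.36), E7+ActivinA+2DG (216 ± 207) and E7+NODAL+2DG (111 ± 13.9) to E7 (10.4 ± 2.52), E7+TGFb (8.41 ± 0.0266), E7+ActivinA (6.58 ± 1.31) and E7+NODAL (5.47 ± 0.263). E7+ActivinA+2DG overlapped both of its neighbours in this order, and E7+ActivinA overlapped E7+NODAL. The other neighbouring groups did not overlap, although with 2 libraries each this is a weak criterion.

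With 2DG present no ligand changed TAC1 past the threshold, with limma's test over all 16 libraries and Benjamini-Hochberg adjustment over the genes tested, called at an adjusted p under 0.05. The change against E7+2DG was 0.14 with TGFb (adjusted p = 1), -0.65 with Activin A (adjusted p = 0.60) and -1.18 with NODAL (adjusted p = 0.27). Without 2DG the log2 differences from E7 were -0.26 with TGFb, -0.58 with Activin A and -0.80 with NODAL. They are given with no test, because only 1 of these 8 libraries reached 10 normalised reads and TAC1 entered the tested genes through its libraries with 2DG. Of all genes tested, limma called 0% for TGFb, 10.02% for Activin A and 21.5% for NODAL without 2DG, and 0%, 7.52% and 0.634% with 2DG. For TGFb the count at an unadjusted p under 0.05 was 3771 genes without 2DG, where edgeR called 0 and DESeq2 called 295, and 273 with 2DG, where edgeR and DESeq2 both called 0.

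The NODAL call of TAC1 with 2DG depends on whether the Activin A libraries enter the shared estimate of the spread. Both NODAL+2DG libraries (101 and 120.4) lay below both E7+2DG libraries (245 and 257). With all 4 Activin A libraries left out of the fit the difference stayed at -1.18 and passed the threshold (adjusted p = 0.0027, limma). Either E7+ActivinA+2DG library left out alone had the same effect on the call, with adjusted p of 0.025 and 0.029. The Activin A value with 2DG rests on its libraries: without replicate 2 it was -1.83 (adjusted p = 0.0015), and without replicate 1 it was 0.53.

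**Figure D1:**
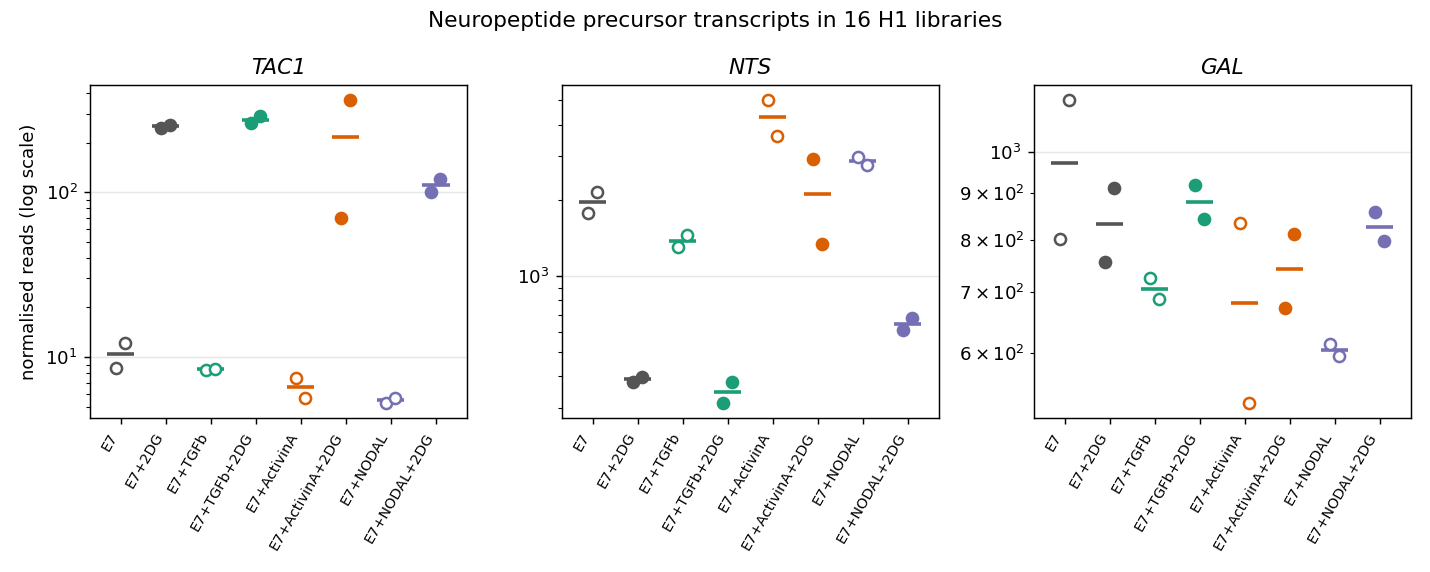
Normalised reads (log scale, each panel with its own range) of TAC1, NTS and GAL in the 16 libraries. Points are single libraries, open without 2DG and filled with 2DG, bars are the mean of the 2 libraries of a group, and colours are the 4 media. TAC1 is at 5.28 to 12.2 without 2DG and 69.7 to 362 with it, NTS at 1303 to 5014 and 314 to 2912, and GAL at 529 to 1139.7 and 672 to 918.5.

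NTS was already well expressed without 2DG and lower with 2DG in every medium, and Activin A raised it. Without 2DG the 2 libraries held 1779 and 2163 normalised reads in E7, 1303 and 1463 with TGFb, 5014 and 3599.8 with Activin A, and 2974 and 2755 with NODAL. With 2DG they held 379.5 and 397 in E7, 314 and 381 with TGFb, 2912 and 1345 with Activin A, and 612 and 680.5 with NODAL. Within each medium both libraries with 2DG lay below both libraries without it, but the Activin A libraries with 2DG lay among those of other media without it.

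The mean NTS level without 2DG was 5.08 times that with it in E7, 3.98 times with TGFb, 2.02 times with Activin A and 4.43 times with NODAL. The log2 differences were -2.33, -1.995, -1.10 and -2.15 (SE 0.26 each). The Activin A value ranged from -1.66 to -0.55 when 1 library was left out at a time. The difference between the media in this response was not tested for NTS, since the gene was picked on that response.

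Activin A raised NTS both without and with 2DG. Without 2DG the mean was 4307 ± 1000.2 against 1971 ± 271 normalised reads in E7 (SD, n = 2). The log2 difference was 1.11 (SE 0.26, adjusted p = 0.015, limma), and both Activin A libraries were above both E7 libraries. That call was lost when E7 replicate 1 (0.97, adjusted p = 0.096) or E7 replicate 2 (adjusted p = 0.05) was left out. NTS was picked for its low level with 2DG, and the E7+2DG libraries are the control with 2DG. The picking can therefore enlarge the difference with 2DG. With 2DG the mean was 2129 ± 1108 against 388 ± 12.3, and the log2 difference was 2.35 (SE 0.26, adjusted p = 5e-05, limma). This call held in each alternative that kept the Activin A libraries, where the highest adjusted p was 0.0014, and the value ran from 1.79 without E7+ActivinA+2DG replicate 1 to 2.90 without replicate 2. The summed level of the 5 endoderm and gut markers was also highest in these groups, at 138.8 and 115.8 normalised reads in E7+ActivinA and 145.2 and 102.1 in E7+ActivinA+2DG, against 56.2 to 89.5 in the other libraries. Of these 5 markers only GATA4 was called with Activin A, and FOXA1 had its highest group mean in E7+NODAL instead (45.8). The part of these markers in the NTS difference was not tested.

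TGFb and NODAL gave smaller NTS differences that did not pass the test. TGFb gave -0.51 without 2DG (adjusted p = 0.26, limma) and -0.17 with it (adjusted p = 1). NODAL gave 0.54 without 2DG (adjusted p = 0.15) and 0.73 with it (adjusted p = 0.20), with both NODAL libraries above both control libraries each time. Without the 4 Activin A libraries 3 of these 4 passed: TGFb without 2DG (adjusted p = 0.0021), NODAL without 2DG (adjusted p = 0.00052) and NODAL with 2DG (adjusted p = 0.00022). Leaving out 1 Activin A library was enough for NODAL with 2DG (adjusted p from 0.038 to 0.042), and either E7+ActivinA+2DG library was enough for NODAL without 2DG (adjusted p = 0.026).

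In order of group means NTS was highest in E7+ActivinA, followed by E7+NODAL (2864 ± 155), E7+ActivinA+2DG, E7, E7+TGFb (1383 ± 113), E7+NODAL+2DG (646 ± 48.4), E7+2DG and E7+TGFb+2DG (347 ± 47.4). E7+ActivinA+2DG overlapped both E7+NODAL and E7, and E7+2DG overlapped E7+TGFb+2DG. The highest library was 15.98 times the lowest.

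**Figure D2:**
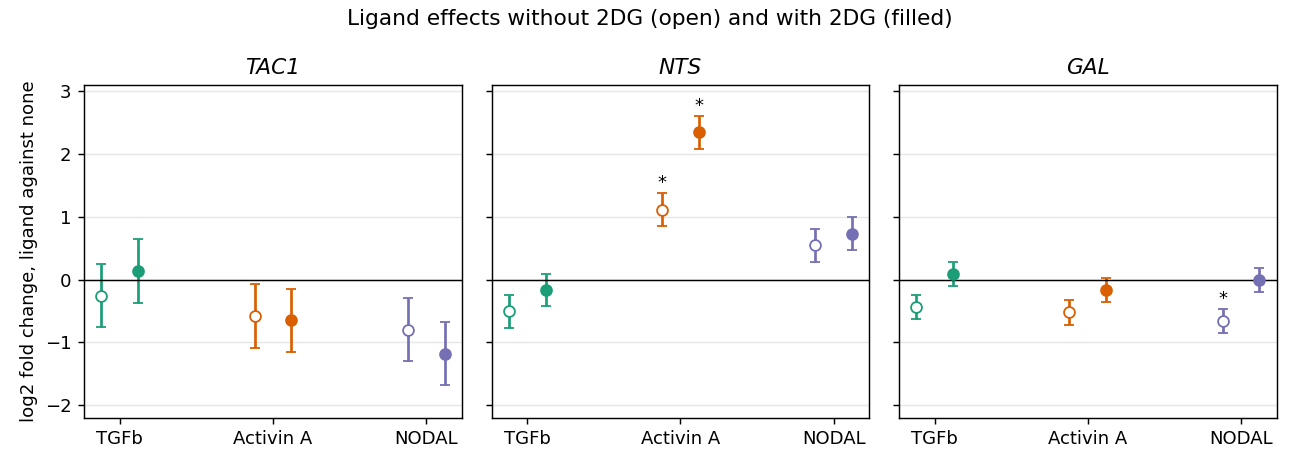
Log2 fold change of TAC1, NTS and GAL with each ligand against no ligand, without 2DG (open) and with 2DG (filled). Bars are the standard error of the fit and asterisks mark an adjusted p under 0.05. The open TAC1 points rest on 5 to 12 reads per library and carry no test. The 3 asterisks are NTS with Activin A at 1.11 and 2.35, and GAL with NODAL without 2DG at -0.66.

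The 2 libraries of E7+ActivinA+2DG differed in TAC1 and NTS more than those of any other group. From replicate 1 to replicate 2 the log2 difference was 2.36 for TAC1, -1.11 for NTS and 0.27 for GAL, whereas the SD of that difference over all tested genes was 0.49. In the other 7 groups the replicates differed by at most 0.45 in TAC1 and 0.48 in NTS, in absolute value. DDIT3, a stress-induced transcription factor, was at 153 and 379 normalised reads in these 2 libraries, and ATF5, a related factor, at 511 and 1496. TAC1, DDIT3 and ATF5 were thus higher, and NTS lower, in replicate 2. The reason for this difference between the libraries was not tested.

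GAL varied little. Its libraries held 801 and 1139.7 normalised reads in E7, 725 and 689 with TGFb, 834 and 529 with Activin A, and 614 and 596 with NODAL. With 2DG they held 755 and 911 in E7, 918.5 and 843 with TGFb, 672 and 811 with Activin A, and 857 and 797 with NODAL. The highest of the 16 libraries was 2.15 times the lowest, and every group overlapped its neighbour in the order of means, which ran from E7 (971 ± 239, SD, n = 2) to E7+NODAL (605 ± 12.9).

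2DG did not change GAL past the threshold in any medium. The log2 change was -0.20 in E7 (unadjusted 95% interval -0.62 to 0.21, adjusted p = 0.45, limma), 0.32 with TGFb (-0.10 to 0.73, adjusted p = 0.35), 0.15 with Activin A (-0.27 to 0.57, adjusted p = 0.67) and 0.45 with NODAL (0.03 to 0.87, adjusted p = 0.20). Over all genes 29.4%, 9.84%, 1.70% and 5.88% were called in these comparisons. The upper ends of these intervals lie below the TAC1 values, and the lower ends above the NTS value of the same medium, which came closest in Activin A medium (-1.10). TAC1 and NTS were picked for these values, so this contrast follows from the picking and is no test. The NODAL value passed without the 4 Activin A libraries (adjusted p = 0.015) or without either E7+ActivinA library (0.035 and 0.034).

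NODAL without 2DG lowered GAL by a log2 fold change of -0.66 (95% interval -1.08 to -0.24, adjusted p = 0.029, limma), in a comparison in which 21.5% of all genes were called. Both NODAL libraries lay below both E7 libraries. It missed the threshold without E7 replicate 2 (-0.41, adjusted p = 0.28), NODAL replicate 1 (adjusted p = 0.10) or NODAL replicate 2 (adjusted p = 0.15). TGFb gave -0.44 (adjusted p = 0.21) and Activin A -0.52 (adjusted p = 0.11), the first passing without the 4 Activin A libraries (adjusted p = 0.015) or either E7+ActivinA library (0.033 and 0.032), the second without E7+ActivinA replicate 1 (-0.85, adjusted p = 0.0014).

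With 2DG present the GAL differences were 0.08 with TGFb (95% interval -0.33 to 0.50, adjusted p = 1), -0.17 with Activin A (-0.59 to 0.25, adjusted p = 0.77) and -0.01 with NODAL (-0.43 to 0.41, adjusted p = 0.99, limma). The difference between a ligand medium and E7 in the 2DG response, tested as an interaction, was 0.52 for TGFb (adjusted p = 0.42), 0.36 for Activin A (adjusted p = 0.69) and 0.65 for NODAL (adjusted p = 0.16). Of all genes, 0%, 0.0419% and 1.87% were called in these interactions; for TGFb 2023 genes had an unadjusted p under 0.05, and edgeR and DESeq2 both called 0. The NODAL interaction passed without the 4 Activin A libraries (adjusted p = 0.0093) or without either E7+ActivinA library (0.021 and 0.02), and the Activin A interaction without E7+ActivinA replicate 1 (adjusted p = 0.046).

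Divided by exon length, the balance between the 3 precursors shifted with 2DG. This shift restates the picking of TAC1 for its rise and NTS for its fall, and is a description only. Per kilobase, NTS was 189 to 811 times TAC1 in the 8 libraries without 2DG (median 421) and 1.44 to 50.7 times in the 8 with it (median 3.20). GAL per kilobase was 119 to 169 times TAC1 without 2DG and 3.25 to 14.0 times with it. NTS per kilobase was above GAL in every library without 2DG, by 1.503 to 5.69 times, whereas with 2DG the ratio ran from 0.286 to 3.62. E7+ActivinA+2DG replicate 1 gave the highest of both NTS ratios with 2DG.

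**Figure D3:**
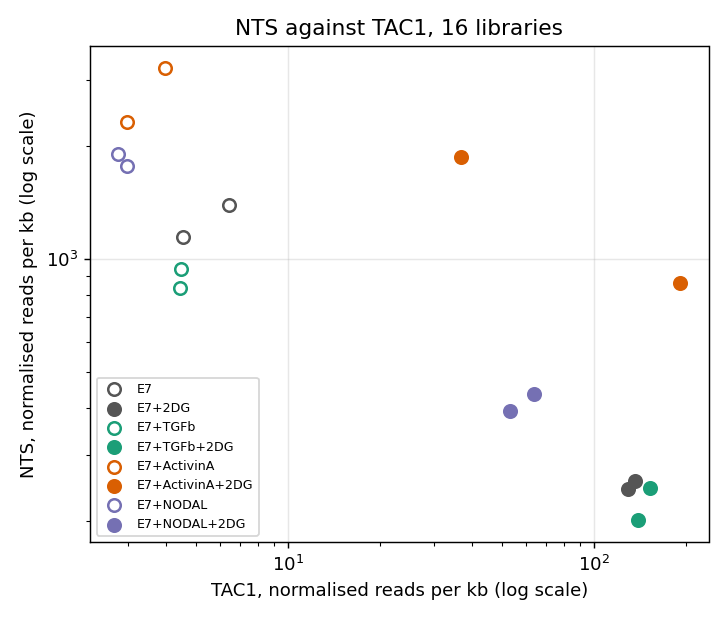
NTS against TAC1 in the 16 libraries, both in normalised reads per kilobase of merged exon on log axes, open without 2DG and filled with 2DG. The libraries without 2DG are at the upper left and those with 2DG to the right, with the E7+ActivinA+2DG libraries highest in NTS among those with 2DG. Both genes were picked on their 2DG response, so the separation follows from the picking.

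The genes whose levels over the 16 libraries most resembled each member were ranked by Pearson's r on the log2 scale, among 1370 genes with a mean of at least 100 normalised reads and group means spanning at least 1. For TAC1 these were CHAC1 (r = 0.996), which degrades glutathione, ARRDC4 (0.992), an arrestin related to TXNIP, INHBE (0.989), an inhibin beta subunit, MTHFD2 (0.988), a mitochondrial folate enzyme, JDP2 (0.987), a leucine zipper repressor, and GARS (0.986), the glycyl-tRNA synthetase. CHAC1 was at 143 to 219 normalised reads without 2DG and 585 to 1606 with it. The 16 points fall into 2 clusters, with and without 2DG, so these r values mainly describe that shared step and carry no p.

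For NTS the nearest were CYYR1 (r = 0.988), CALB1 (0.979), the calcium buffer calbindin, GUCY1B3 (0.977), a subunit of soluble guanylate cyclase, CAVIN3 (0.969), a caveolar coat protein, TUBB6 (0.968), a beta tubulin, and FAM210B (0.968). CALB1 was at 2143 to 5310 normalised reads without 2DG and 955 to 4474 with it, so its ranges overlapped as those of NTS do. For GAL the closest gene reached only r = 0.791 (SLC27A2, a fatty acid transporter and acyl-CoA synthetase), and the sixth r = 0.738.

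Most of the other peptide precursors called with 2DG were higher, while the median change of the list stayed near that of all genes. Of 77 listed, 29 were in the table and 28 were tested, and 2DG raised 5 and lowered 1 in E7, where 14.6% of all genes were called higher and 14.8% lower. It raised 6 and lowered 0 with TGFb (5.47% and 4.37% of all genes), raised 2 and lowered 0 with Activin A (1.48% and 0.221%), and raised 5 and lowered 1 with NODAL (3.11% and 2.76%). The median log2 change of the 28 was -0.16, 0.06, 0.06 and 0.19, beside 0.00 for all genes. The count of 6 called precursors became 3 in E7 without E7 replicate 1, 3 with TGFb without E7+TGFb replicate 1 and 1 with NODAL without E7+NODAL+2DG replicate 1, and the 2 with Activin A became 9 without E7+ActivinA replicate 2.

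ADM2, the precursor of the vasodilator intermedin, rose with 2DG in all 4 media by log2 2.65, 2.24, 2.02 and 1.496 (adjusted p from 0.00017 to 0.0081, limma). STC2, a secreted glycoprotein hormone of the stanniocalcin family, rose by 2.17, 2.02, 2.28 and 1.68 (adjusted p from 0.00036 to 0.0035). Both were highest in E7+ActivinA+2DG replicate 2 among all libraries, ADM2 at 692 against 296 in replicate 1 and STC2 at 4151 against 1659. In NODAL medium the ADM2 call was lost in 3 of 23 alternatives (highest adjusted p = 0.11) and the STC2 call in 1 (adjusted p = 0.055). CALCB, another listed precursor, rose with 2DG by 1.11 in E7, 1.10 with TGFb and 1.34 with NODAL (adjusted p from 0.0076 to 0.019, limma). These calls were lost in 1, 4 and 3 of 23 alternatives. Activin A gave CALCB log2 changes of -1.29 without 2DG and -1.35 with it (adjusted p = 0.0066 and 0.0051, limma). The other precursors of the tachykinin family had few reads: TAC3, which encodes neurokinin B, was at 3.22 to 13.2 normalised reads and TAC4, which encodes hemokinin, at 1.09 to 15.1, and neither passed in any comparison. TAC3 and TAC4 are named as relatives of TAC1, a choice made after their values were seen.

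APELA, the precursor of the early embryonic peptide ELABELA, was the precursor with the firmest ligand response. It was at 952 and 969 normalised reads in E7, 452 and 466 with Activin A, and 457 and 416.5 with NODAL. APELA fell by 1.06 with Activin A and by 1.14 with NODAL (adjusted p = 4.7e-05 and 0.00014, limma), and with 2DG present by log2 changes of -1.57 and -1.67 (adjusted p = 9.7e-07 and 7.8e-06). Its direction under Activin A was thus opposite to that of NTS. It rose with 2DG in TGFb medium by 1.12 (adjusted p = 9.9e-05), and each of these 5 calls held in all alternatives. The rise was not particular to TGFb medium, since E7+2DG held 1546 and 1552 normalised reads of APELA against 952 and 969 in E7. Of the 28 precursors, Activin A raised 0 and lowered 3 without 2DG (5.28% and 4.74% of all genes) and raised 0 and lowered 2 with 2DG (4.27% and 3.25%). NODAL raised 1 and lowered 4 without 2DG (10.6% and 10.9%) and raised 0 and lowered 1 with 2DG (0.425% and 0.209%).

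**Figure D4:**
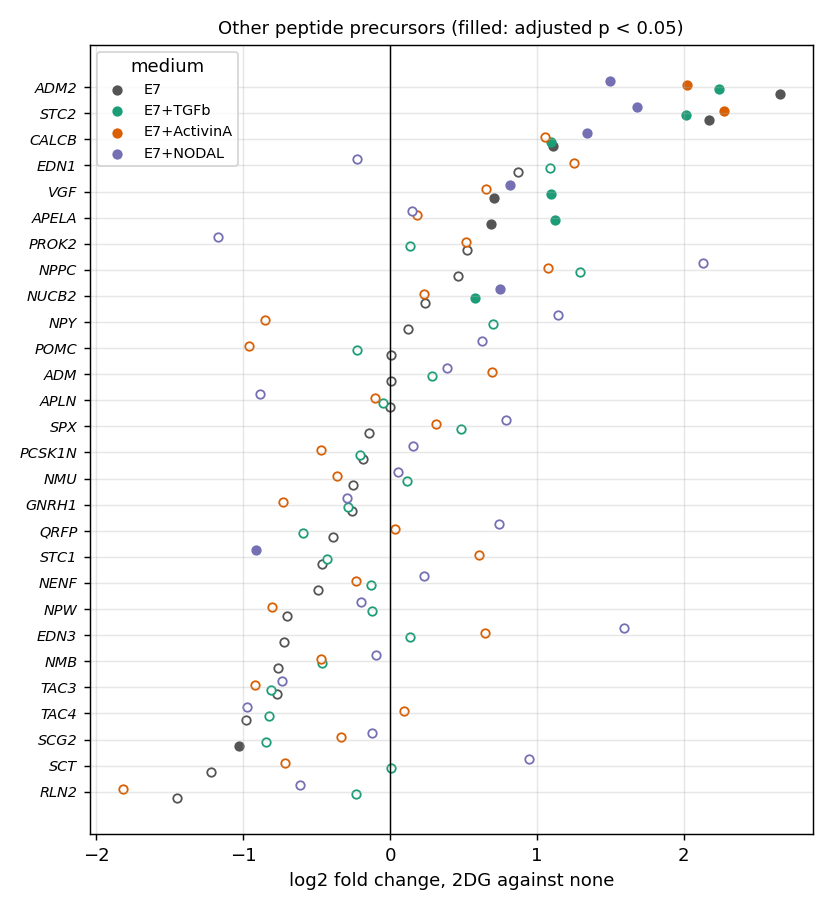
Log2 fold change with 2DG of the 28 other peptide precursors tested, ordered by their value in E7, with 1 point per medium. Filled points passed the test at an adjusted p under 0.05. ADM2 and STC2 are filled in all 4 media, at 1.496 to 2.65, and most precursors have open points on either side of 0.

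Receptors for the 3 peptides were few. Of 10 listed, 5 were in the table: TACR3, which prefers neurokinin B, the neurotensin receptor NTSR1, the sorting receptors SORT1 and SORL1, which can bind neurotensin, and the galanin receptor GALR1. NTSR1 was at 4.79 to 16.3 normalised reads and GALR1 at 3.75 to 48.2, whereas SORT1 was at 1494 to 2367. In the main fit only TACR3 passed, falling with NODAL without 2DG by 0.89 (adjusted p = 0.018, limma), from 54.6 and 49.7 to 33.8 and 22.6. In that comparison 10.6% of all genes were called higher and 10.9% lower, and the TACR3 call was lost in 3 of 23 alternatives. For 2DG, 0 of the 5 receptors passed in E7, TGFb, Activin A and NODAL media, where 29.4%, 9.84%, 1.70% and 5.88% of all genes were called. That count became 2 in E7 with DESeq2. Without the 4 Activin A libraries it became 1 in TGFb medium and 3 in NODAL medium. In Activin A medium it also rose when E7+ActivinA replicate 2 was left out. GALR1 had positive 2DG values of 1.18, 0.59, 1.55 and 1.51 in E7, TGFb, Activin A and NODAL media that did not pass (adjusted p from 0.075 to 0.49). It was at 3.75 to 15.85 normalised reads in the libraries without 2DG and at 18.15 to 48.2 in those with it, all low levels.

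Among 15 tested enzymes that process precursors, QPCT had the largest called change with 2DG in E7 and in NODAL medium and with Activin A, without and with 2DG. QPCT is glutaminyl cyclase, which forms the pyroglutamate at the start of peptides such as neurotensin. Its libraries held 38.3 and 47.7 normalised reads in E7, 22.04 and 26.2 with TGFb, 147 and 115 with Activin A, and 80.3 and 61.3 with NODAL. With 2DG they held 11.4 and 7.61 in E7, 9.80 and 13.1 with TGFb, 114 and 72.0 with Activin A, and 19.1 and 28.3 with NODAL. As with NTS, E7+ActivinA was the highest group, and in each medium both libraries with 2DG were below both libraries without it.

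2DG lowered QPCT in E7 (log2 -2.08, SE 0.31, adjusted p = 0.00068, limma) and in NODAL medium (-1.55, adjusted p = 0.011, lost in 3 of 23 alternatives), with values of -1.02 in TGFb medium (adjusted p = 0.052) and -0.52 in Activin A medium (adjusted p = 0.35). Activin A raised QPCT by 1.58 without 2DG (adjusted p = 0.0051) and by 3.15 with it (adjusted p = 1.6e-05), and both calls held in all alternatives.

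**Figure D5:**
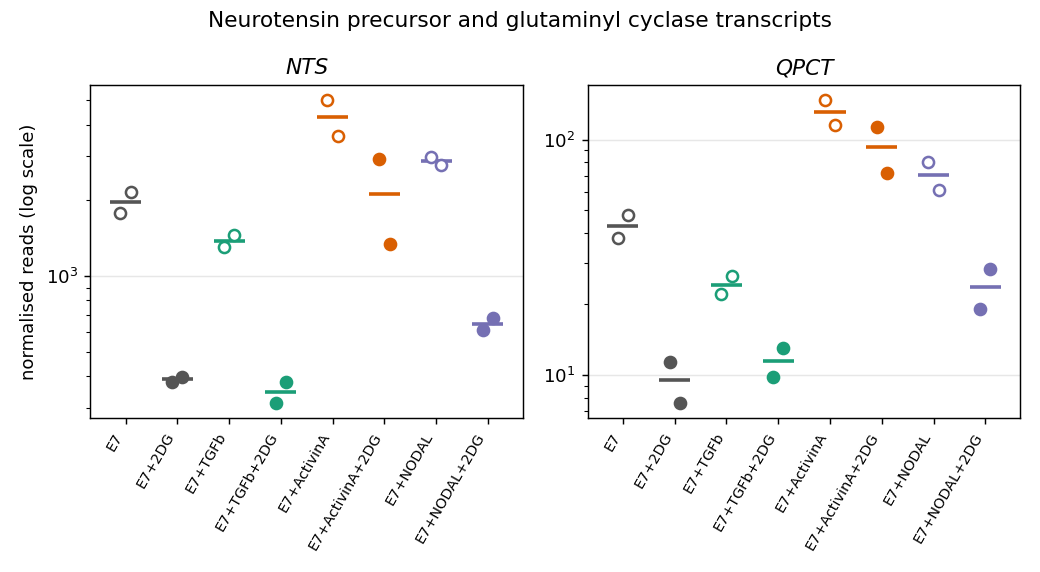
Normalised reads (log scale) of NTS and QPCT in the 16 libraries, open without 2DG and filled with 2DG, with a bar at the mean of each group. Both genes are highest in E7+ActivinA, at 5014 and 3599.8 for NTS and 147 and 115 for QPCT, and both are lower with 2DG in each medium.

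The convertases differed in direction under Activin A. PCSK1, the convertase of the regulated secretory pathway, fell with Activin A by 1.08 without 2DG (adjusted p = 0.0012, limma) and by 0.93 with it (adjusted p = 0.0034), whereas PCSK5 rose by 1.08 and 1.53 (adjusted p = 6.7e-05 and 2.2e-06) and FURIN by 0.68 and 0.55 (adjusted p = 0.00074 and 0.0035). FURIN also rose by 0.55 with NODAL without 2DG (adjusted p = 0.0032), a call lost in 1 of 23 alternatives (adjusted p = 0.052). The carboxypeptidase CPE, at 244 to 353 normalised reads, and the amidating enzyme PAM, at 368 to 585, passed no ligand or 2DG comparison. PAM was nevertheless at 368 to 397 in the libraries without 2DG and at 434 to 585 in those with it. Of the 15 enzymes, 2DG raised 1 and lowered 1 in E7, where 14.6% of all genes were called higher and 14.8% lower. Activin A raised 3 and lowered 2 without 2DG (5.28% and 4.74% of all genes) and raised 3 and lowered 1 with it (4.27% and 3.25%). The 2 calls in E7 became 1 without E7 replicate 2, and the 5 with Activin A became 8 without E7+ActivinA replicate 1.

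Of 13 tested peptidases that break down such peptides, Activin A raised 1 and lowered 2, both without 2DG (5.28% and 4.74% of all genes) and with it (4.27% and 3.25%), and 2DG in E7 raised 1 and lowered 1 (14.6% and 14.8%). The 2 calls in E7 became 1 without E7 replicate 1, and the 3 with Activin A alone became 5 without E7+ActivinA replicate 1. DPP4, which clips substance P, fell by 2.63 without 2DG and by 1.88 with it (adjusted p = 1.9e-06 and 1.5e-05, limma), and MME, the neprilysin that degrades tachykinins and neurotensin, by 1.22 and 1.11 (adjusted p = 0.00011 and 0.0002). ACE, which also cleaves these peptides, rose by 1.62 and 1.51 (adjusted p = 0.00089 and 0.0015). NLN and THOP1, peptidases that cut neurotensin, were at 4191 to 5802 and 949 to 1259 normalised reads and passed no comparison of 2DG or a ligand.

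Most transcription factors on a further fixed list bind cyclic AMP, AP-1 or amino acid response elements, kinds of motif that were searched above. REST, EGR1 and NR4A1, on the same list, bind other sites. Of the 25 tested, 2DG raised 10 and lowered 1 in E7 (14.6% and 14.8% of all genes) and raised 8 and lowered 0 with TGFb (5.47% and 4.37%). It raised 4 and lowered 0 with Activin A (1.48% and 0.221%) and raised 6 and lowered 0 with NODAL (3.11% and 2.76%). ATF5 rose by 3.68, 3.81, 2.38 and 3.43 (adjusted p from 2.9e-05 to 0.0042, limma), and DDIT3 by 3.25, 3.95, 2.91 and 2.93 (adjusted p from 0.00015 to 0.0056), of which the Activin A call was lost without E7+ActivinA+2DG replicate 2 (adjusted p = 0.074). The medians of the list were 0.24, 0.41, 0.17 and 0.18, beside 0.00 for all genes. Whether any of these factors acts on TAC1 or NTS was not tested.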

How the data were processed

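Polyadenylated RNA of 16 H1 libraries was read from both ends, per the labels' protocols. The deposited values are a signal: the authors' read counts, each divided by its library's size factor. Per the submitters' processing notes, the tools were DESeq2 1.26.0, featureCounts 1.5.3, STAR and Trimmomatic 0.36, and the build hg38; annotation, strand setting and gene filter are not given in the sources used here. Whole reads were recovered for 100% of values (tolerance 1e-06). The members and gene lists were chosen with earlier results of these data known. The 16714 genes that reached 10 in at least 2 libraries were tested with limma 3.58.1 in R 4.3.3, with an intensity trend on log2(value + 1), 8 group means fitted to all 16 libraries, 13 contrasts, two-sided, Benjamini-Hochberg adjusted within each. The script was tested on simulated data. Named genes were the members, the 6 genes most like each, up to 4 called genes with the largest change per list and comparison, and the receptors, enzymes and peptidases that act on these peptides. Alternatives were TMM factors, a pseudocount of 8, no filter, edgeR 4.0.16 and DESeq2 1.42.0 on recovered reads, the replicate number as a block, the fit without the 4 Activin A libraries, and each library left out, when a lone library is assumed to vary like the other groups. Symbols matched 1 GENCODE 29 gene for 17317 genes (97.6%).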

Additional observations from a re-analysis of the deposited data

Results flagged for a closer look

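In 3 genes of the fixed lists the response to 2DG in NODAL medium differed from that in E7 by the interaction term (limma, Benjamini-Hochberg adjusted). For SCG3, a granin of secretory granules, the difference was 0.7792 (adjusted p = 0.044), with a 2DG change of -0.67 in E7 and 0.11 with NODAL. For SYT7, a calcium sensor of exocytosis, it was -1.101 (adjusted p = 0.047), with 0.87 in E7 and -0.23 with NODAL. For L1TD1, an RNA-binding protein of pluripotent cells, it was 0.7971 (adjusted p = 0.038), with -0.55 in E7 and 0.25 with NODAL. Each of the 3 calls was lost in 12 of 23 alternatives, with highest adjusted p of 0.21, 0.22 and 0.20 without E7 replicate 2. No group has more than 2 libraries, so no library was screened as an outlier.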

How the results depend on the processing

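Across 25 results for TAC1, NTS and GAL put through the test, 535 of 567 values under alternatives stayed on their side of the threshold. Another 27 passed where the main value had not and 5 lost the call, and 0 changed sign with a call in either fit. Values without a call could change sign and still count among the 535. TAC1 with Activin A and 2DG did so, at -0.65 in the main fit and 0.53 without E7+ActivinA+2DG replicate 1. Of 182 values of the 8 described 2DG results of TAC1 and NTS, 7 moved beyond the spread between replicates, all for TAC1: with a pseudocount of 8, 3.82 in E7, 4.11 with TGFb and 3.13 with NODAL; with edgeR 5.02 and 4.3, and with DESeq2 5.04 and 4.34, with TGFb and NODAL. The 3 TAC1 ligand comparisons without 2DG are in these counts but carry no test here and are read as values only, at 5 to 12 reads per library. Their NODAL value ran from -1.03 to -0.57 when 1 library was left out and was -0.80 without the 4 Activin A libraries too. Without those libraries TAC1 passed with NODAL and 2DG at -1.18, NTS with TGFb at -0.51 and with NODAL at 0.55 and 0.73, and GAL with 2DG in NODAL medium at 0.45, with TGFb at -0.44 and in the NODAL interaction at 0.65. Leaving out 1 library gave these ranges where a call changed: TAC1 with NODAL and 2DG -1.31 to -1.05, and with Activin A and 2DG -1.83 to 0.53. For NTS they were 0.88 to 1.35 with Activin A, 0.40 to 0.69 with NODAL and 0.66 to 0.81 with NODAL and 2DG. For GAL they were 0.40 to 0.50 for 2DG in NODAL medium, -0.69 to -0.18 for TGFb, -0.85 to -0.20 for Activin A, -0.91 to -0.41 for NODAL, 0.0288 to 0.68 for the Activin A interaction and 0.40 to 0.91 for the NODAL interaction.

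Replicate numbers did not pair the samples: 3 of 28 pairs of groups had replicate differences correlated above 0.1 (range -0.39 to 0.24). With the replicate block no call for TAC1, NTS or GAL changed (NTS with Activin A and 2DG 2.35, adjusted p = 0.00012, limma), while the genes called in the NODAL interaction went from 313 to 0. With the Activin A libraries left out, counts over all genes rose for 2DG in E7 from 4913 to 7594, in TGFb medium from 1644 to 4111 and in NODAL medium from 982 to 3405, for TGFb without 2DG from 0 to 4404, and for NODAL from 3601 to 6474 without 2DG and from 106 to 2951 with it. The interaction counts went from 0 to 2469 for TGFb and from 313 to 4811 for NODAL. DESeq2 called 606 genes against 284 for 2DG in Activin A medium, 295 against 0 for TGFb, 278 against 106 for NODAL with 2DG, and 43 against 7 and 1743 against 313 in the Activin A and NODAL interactions. Leaving out 1 library gave 1590 to 7005 genes for 2DG in E7, 370 to 3165 with TGFb, 46 to 5574 with Activin A and 164 to 2474 with NODAL, 642 to 4740 for Activin A and 836 to 5679 for NODAL without 2DG, and 622 to 1948 and 11 to 1768 with it. Depth limits TAC1 without 2DG most.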

Other observations

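Markers of neurons and neuroendocrine cells were called in both directions, with 2DG and with Activin A. Of 13 tested, 2DG raised 4 and lowered 2 in E7 (14.6% and 14.8% of all genes) and raised 3 and lowered 0 with TGFb (5.47% and 4.37%). It raised 3 and lowered 0 with Activin A (1.48% and 0.221%) and raised 4 and lowered 1 with NODAL (3.11% and 2.76%). INSM1, a zinc finger factor of neuroendocrine progenitors, was at 108 and 142 normalised reads in E7 and 323 and 347 with 2DG, and rose by 1.42 (adjusted p = 0.017, limma, lost in 4 of 23 alternatives). NEUROG3, a factor of endocrine progenitors, rose with 2DG in NODAL medium by 1.77 (adjusted p = 0.00028). STMN2, a microtubule regulator of neurons, went the other way, with -1.21 in E7 (adjusted p = 0.017, lost in 2 of 23 alternatives) and -1.39 in NODAL medium (adjusted p = 0.028, lost in 4). GAP43, a growth cone protein, fell by 0.62 in E7 (adjusted p = 0.014). Activin A lowered INSM1 by a log2 fold change of -3.32 (adjusted p = 0.00013) and NEUROG3 by -2.84 (adjusted p = 1.9e-06) without 2DG, and raised GAP43 by 0.81 (adjusted p = 0.0074, lost in 1 of 22 alternatives). Of 5 tested endoderm and gut markers Activin A raised 1 and lowered 0, both without 2DG (5.28% and 4.74% of all genes) and with it (4.27% and 3.25%). The same counts held for 6 tested fibroblast markers. The endoderm call was GATA4, an endoderm and heart factor, by 1.77 without 2DG and 2.37 with it (adjusted p = 0.029 and 0.0057, limma, lost in 2 and 1 of 22 alternatives). AFP on the same list had a lower mean, 2.35 with Activin A against 8.22 in E7. The fibroblast calls were PDGFRA, a stromal and mesodermal receptor, by 0.81 without 2DG (adjusted p = 0.0065), and PDGFRB, by 1.61 with 2DG (adjusted p = 0.031, lost in 3 of 22 alternatives). GATA4 was at 11.5 and 10.2 normalised reads in E7 and 42.2 and 36.7 with Activin A. CHGA, a granule protein of endocrine cells, was at 66.3 to 110 normalised reads and SNAP25, a neuronal exocytosis protein, at 2.03 to 11.2. The part of such cells in the levels of TAC1, NTS and GAL was not tested.

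Among 25 tested genes of secretory granules and regulated secretion, 2DG raised 8 and lowered 2 in E7 (14.6% and 14.8% of all genes), and the 10 calls became 4 without E7 replicate 2. PTPRN, a granule membrane protein, rose by 1.58 (adjusted p = 0.0011, limma), a call that held in all alternatives. BAIAP3, which acts in granule trafficking, rose with Activin A by 1.16 and with NODAL by 1.24 (adjusted p = 0.0022 and 0.0015), and SYT1, a calcium sensor of exocytosis, fell with Activin A by 1.02 (adjusted p = 0.00013).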
